A study of Homo sapiens with 42 samples.

Results

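A set of genes of the integrated stress response and the unfolded protein response was followed through m6A peak lists from HepG2, a human hepatocellular carcinoma cell line. The set has 9 members, picked by identifier: ATF4 (ENSG00000128272), ATF3 (ENSG00000162772), DDIT3 (ENSG00000175197), TRIB3 (ENSG00000101255), PPP1R15A (ENSG00000087074), ASNS (ENSG00000070669), XBP1 (ENSG00000100219), ATF6 (ENSG00000118217) and HSPA5 (ENSG00000044574). They carried 131 of the 211410 peaks summed over 7 lists, and were 9 of the 17005 genes with a peak in any list. N6-methyladenosine (m6A) is a methylated form of adenosine found within mRNA, and a peak is a stretch of a transcript that an antibody against m6A pulls down above the unselected input RNA.

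All cells were HepG2 carrying a lentiviral short hairpin RNA (shRNA) and selected with puromycin. In the first set, a non-specific control shRNA stood beside shRNAs against METTL3, METTL14, WTAP and SETD2 (shSETD2#1). In the second set, another SETD2 shRNA (shSETD2#2) stood beside a non-specific control of its own, called the second control here. Lists are named by the targeted gene, with the prefix sh where a value belongs to a knockdown. Each condition had 3 input and 3 immunoprecipitated (IP) libraries, 42 samples in all, and the authors called 1 peak list per condition from its replicates together. No value therefore has a replicate error, no p-value between conditions can be had, and read depth is unknown for every list. The labels do not say whether the cells were a clone or a pool, or whether the replicates were separate cultures. Peak lists hold no transcript levels, so the depletion of the targeted genes was not analysed here.

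The integrated stress response is a signal that slows translation through phosphorylation of initiation factor eIF2 and at the same time favours translation of ATF4, whose mRNA has upstream open reading frames. ATF4 then activates stress genes, among them DDIT3, ATF3, TRIB3 and ASNS. The unfolded protein response is the answer of the endoplasmic reticulum to misfolded proteins, with ATF6 and the IRE1-XBP1 branch as sensors and transcription factors and the chaperone HSPA5 as a main product. METTL3 and METTL14 form the core of the m6A methyltransferase and WTAP is its adaptor, while SETD2 trimethylates lysine 36 of histone H3.

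All 9 genes carried m6A peaks. The control list held 21 of their peaks, METTL3 19, METTL14 16, WTAP 16, SETD2 #1 18, the second control 20 and SETD2 #2 21. Joined across lists wherever their blocks overlapped on the same strand, these peaks formed 23 regions, numbered here from 5' to 3' within each gene. Of the 23 regions, 12 were in all 7 lists, and these 12 lay in 8 of the genes, the exception being ASNS. Regions present numbered 21 in the control, 17 with shMETTL3, 13 with shMETTL14, 16 with shWTAP, 17 with shSETD2 #1, 20 in the second control and 19 with shSETD2 #2. The METTL14 list thus held the fewest. Over all genes it had 28841 peaks, against 33672 in the control, and the SETD2 #1 list was the smallest with 28645. Regions were not formed over all genes, so whether the region counts are particular to these genes was not tested. Coordinates are on hg19 and 1-based. Blocks leave out introns, and whether a block lies in a coding part or an untranslated region was not analysed here.

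**Figure D1:**
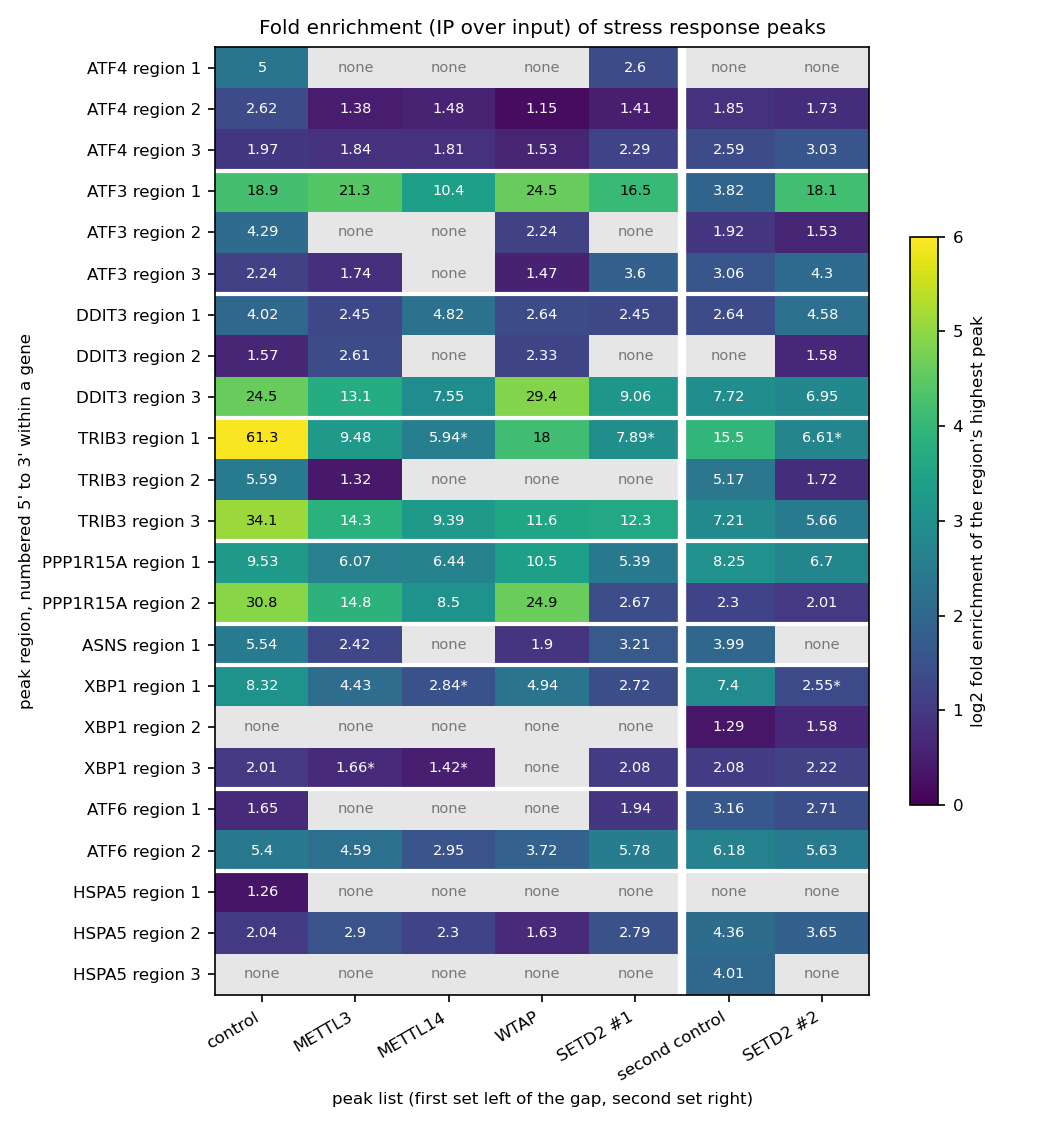
Fold enrichment (IP over input, the authors' value) of each of the 23 regions in rows, by peak list in columns, coloured on a log2 scale. Grey cells marked none had no peak, an asterisk marks a region split into several peaks of which the highest is shown, and the brightest cell is TRIB3 region 1 in the control at 61.3-fold.

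Most peaks of these genes ranked higher by p-value than by fold enrichment. In the control list, 19 of the 21 peaks had a better log10 p than the list median of -11.8, while 7 had a fold enrichment above the list median of 6.79. A log10 p below -100 was reached by 10 of the 21, against 15.6% of all control peaks. The 7 lay in ATF3, DDIT3, TRIB3, PPP1R15A and XBP1, and 2.65% of control peaks had a higher fold than TRIB3 region 1. In the second control, 14 of 20 peaks were better than the median log10 p of -10.7 and 8 lay above the median fold enrichment of 4.33. A p-value rises in strength with the number of reads as well as with enrichment, and transcript abundance was not measured in these lists.

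In the control, the 3'-most peaks of TRIB3 and DDIT3 had the lowest log10 p of the group. TRIB3 region 3 had a log10 p of -10600 in the control, with 196 of the 33672 control peaks lower, and in the second control -2700, with 46 of 31249 lower. DDIT3 region 3 had a log10 p of -8230 in the control, with 205 peaks lower, but -293 in the second control. HSPA5 region 2 came next in the control, with a log10 p of -552 at 2.04-fold, and 92.3% of control peaks had a higher fold. In the second control it was at -1840 and 4.36-fold, with 83 peaks lower in log10 p and 49.5% higher in fold. In the SETD2 #2 list HSPA5 region 2 had the lowest log10 p of the group, -1300, ahead of TRIB3 region 3 at -770. ATF4 region 2 had a log10 p of -319 at 2.62-fold in the control. The counts of lower control peaks include 182 with a log10 p of minus infinity, which have no order among them. Such peaks were not counted separately in the second control.

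**Figure D2:**
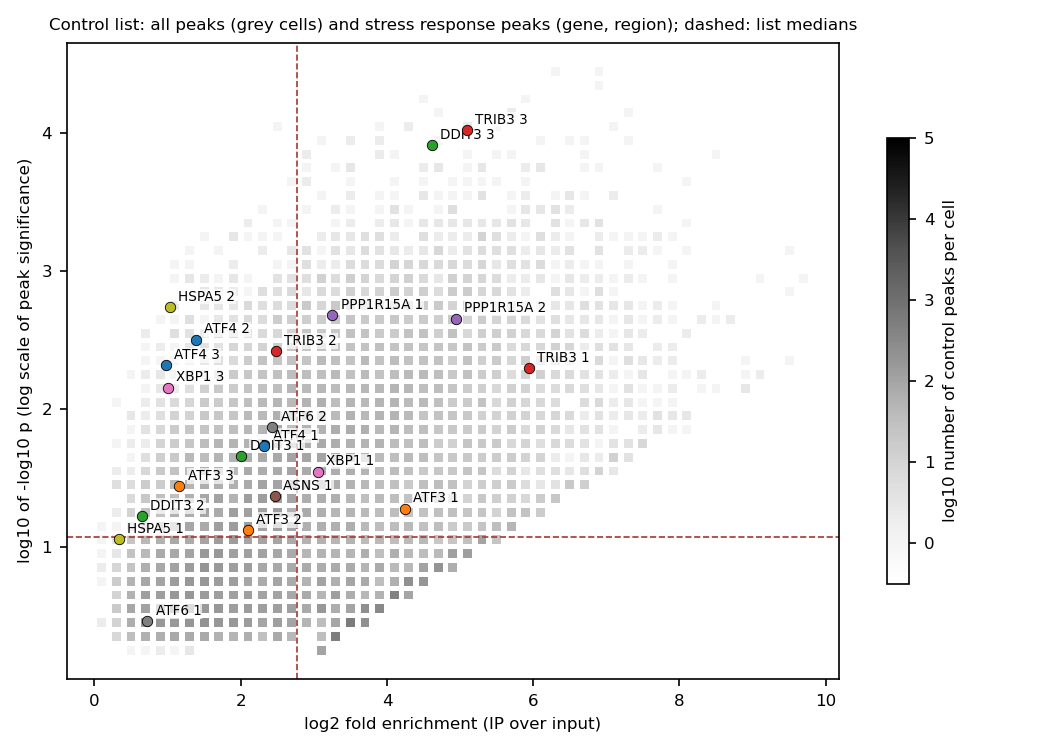
Control list, with log2 fold enrichment on the x axis and log10 of -log10 p on the y axis. Grey cells count all 33490 peaks with a finite p, points are the 21 peaks of the 9 genes labelled by gene and region, and dashed lines are the list medians. Most points lie above the horizontal line and left of the vertical line.

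The first question was what became of these peaks when a subunit of the methyltransferase was reduced. Of the 21 control peaks, 4 were absent from the METTL3 list (19.1%, against 22.8% of all control peaks), 8 from the METTL14 list (38.1%, against 29.8%) and 5 from the WTAP list (23.8%, against 28.8%). The METTL14 share lay above that of all peaks and the METTL3 and WTAP shares below it, each by few of the 21 peaks. For METTL3 and WTAP this direction turned with the threshold. Among peaks with a false discovery rate (FDR) of at most 1e-05 in both lists, 5 of 20 control peaks were absent from METTL3 (25%, against 20.4% of all) and 7 of 20 from WTAP (35.0%, against 27.0%). In the authors' shorter lists, limited to stronger peaks, the shares were 35.3% against 20.4% and 41.2% against 27.1%. In the other direction, 0 of the 19, 16 and 16 peaks of these lists were absent from the control, while over all peaks the shares gained were 10.6, 12.7 and 13.5%. ASNS was the only one of the 9 genes left with no peak at all, in the METTL14 list, where 18% of all genes with a control peak had none, against 12.9% with shMETTL3 and 16.6% with shWTAP.

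SETD2 was treated in the same way. From the SETD2 #1 list, 4 of the 21 control peaks were absent (19.1%, against 27.0% of all), and 0 of its 18 peaks were absent from the control (8.07% of all). From the SETD2 #2 list, 2 of the 20 second control peaks were absent (10.0%, against 20.5%), and 1 of its 21 peaks was absent from the second control (4.76%, against 14.5%). Genes left without a peak numbered 0 with shSETD2 #1 (15.1% of all genes) and 1, again ASNS, with shSETD2 #2 (10.5%). Between the controls, 4 of 21 peaks of the control had no counterpart in the second (28.6% of all), 3 of 20 second control peaks were absent from the control (15.6% of all), and 0 genes were left without a peak (13.4% of all). In the full lists, the number absent with METTL3 and with SETD2 #1 was the same as between the 2 controls, which belong to different sets.

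Fold enrichment was set side by side for peaks that overlapped exactly 1 peak of the other list. It was lower than in the control for 13 of 16 such peaks in METTL3, 8 of 10 in METTL14 and 12 of 16 in WTAP. The shares over all matched peaks were 55.0, 59.8 and 62.6%. The median ratio to the control was 0.571 with shMETTL3, 0.558 with shMETTL14 and 0.673 with shWTAP among these genes, against 0.940, 0.858 and 0.828 over all matched peaks. For SETD2 #1, 10 of 16 were lower (70.4% of all), with a median ratio of 0.594 against 0.790. For SETD2 #2, 10 of 16 were lower than in the second control (58.7% of all), with a median ratio of 0.906 against 0.925. The second control was itself lower than the control at 11 of 17 peaks (71.3% of all), with a median ratio of 0.866 against 0.694. Divided by that median over all peaks, it was lower at 6 of the 17, so this direction turned with the scaling. These comparisons, apart from that of SETD2 #2, share the control, so a high control value lowers all of them.

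**Figure D3:**
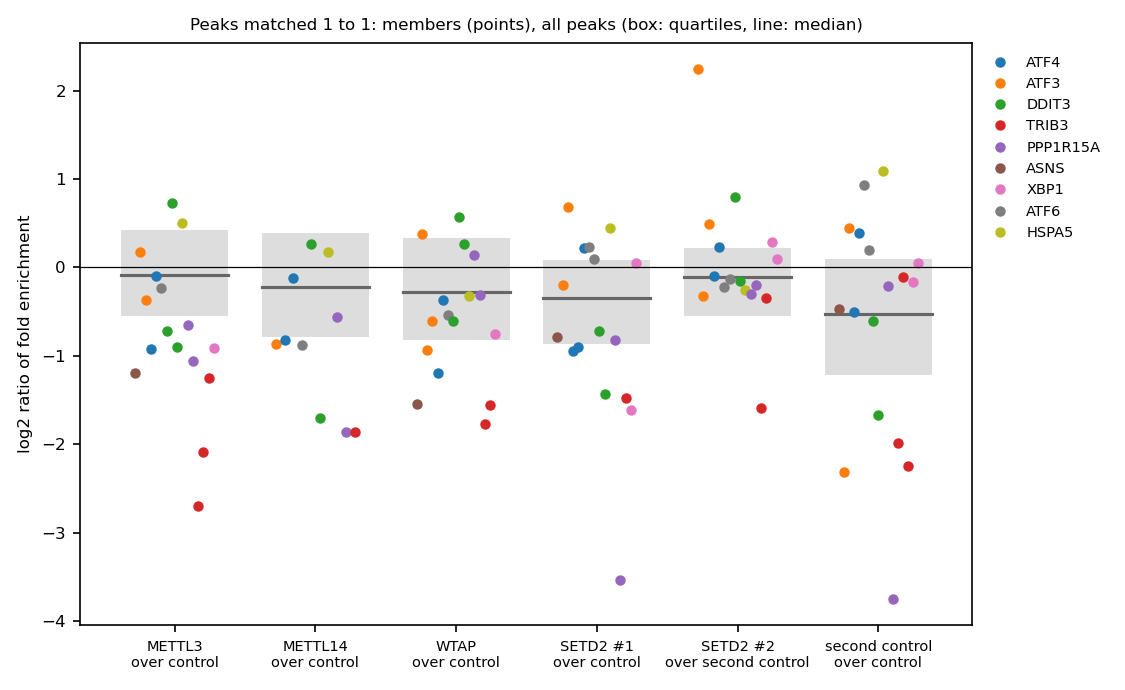
Log2 ratio of fold enrichment for peaks matched 1 to 1, for each of 6 comparisons on the x axis. Points are peaks of the 9 genes coloured by gene, grey boxes span the quartiles of all matched peaks, and dark lines are their medians. TRIB3 points (red) are the lowest with shMETTL3, at -2.69 for region 1, and the PPP1R15A region 2 points (purple) are the lowest with shSETD2 #1 and the second control, at -3.53 and -3.74.

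To lessen the weight of the first control, the 17 control peaks that also overlapped a second control peak were set against both controls. In METTL3, 12 of the 17 were absent or lower in fold than in both controls, against 33.7% of all such peaks. The number was 12 with shMETTL14 (44.8% of all), 10 with shWTAP (46.0%), 7 with shSETD2 #1 (43.3%) and 9 with shSETD2 #2 (59.8%). The shares were 70.6% with shMETTL3 and shMETTL14, 58.8% with shWTAP, 41.2% with shSETD2 #1 and 52.9% with shSETD2 #2. The 17 peaks come from 9 genes, and peaks of 1 gene are not independent. Folds were not rescaled here. The median ratio of the second control to the control was 0.866 in these genes and 0.694 over all peaks matched 1 to 1. Whether this made it easier for these genes to fall below both controls, and how much of the contrast it makes, was not tested.

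Matched peaks were also compared in width. They were narrower than in the control for 10 of 16 in METTL3 (56.7% of all), 7 of 10 in METTL14 (62.4%), 11 of 16 in WTAP (62.2%) and 10 of 16 in SETD2 #1 (64.9%). In SETD2 #2, 4 of 16 were narrower and 9 wider than in the second control, where 44.1% of all were narrower. The second control was narrower than the control at 10 of 17 (60.7%). Summed over the 9 genes, peaks covered 9265 bases in the control, 7256 with shMETTL3, 5493 with shMETTL14, 6086 with shWTAP, 7946 with shSETD2 #1, 8609 in the second control and 8190 with shSETD2 #2. That is 78.3% of the control length with shMETTL3, 59.3% with shMETTL14, 65.7% with shWTAP and 85.8% with shSETD2 #1, against 86.1, 78.7, 80.4 and 77.3% for all peaks. The second control stood at 92.9% for these genes and 75.7% for all peaks, so more of the length was covered there in these genes than in general.

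ATF4, the transcription factor that carries out the integrated stress response, had 3 regions on the plus strand of chromosome 22. Region 1, from 39916495 to 39917123, was a peak of 629 bases in the control enriched 5.0-fold at a log10 p of -54.1. SETD2 #1 held a peak of 240 bases there enriched 2.6-fold at a log10 p of -7.24. None of the METTL3, METTL14, WTAP, second control and SETD2 #2 lists had a peak in it, so the second control lacked it as the writer knockdowns did.

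Region 2 of ATF4, from 39917602 to 39917972, was in all lists. Its fold enrichment was 2.62 in the control, 1.38 with shMETTL3, 1.48 with shMETTL14, 1.15 with shWTAP, 1.41 with shSETD2 #1, 1.85 in the second control and 1.73 with shSETD2 #2. All 5 knockdowns lay below both controls, and WTAP was the lowest, with 60 bases covered against 210 in the control and 270 in the second control. Region 3, from 39918331 to 39918690, had fold enrichments of 1.97 in the control, 1.84 with shMETTL3, 1.81 with shMETTL14, 1.53 with shWTAP, 2.29 with shSETD2 #1, 2.59 in the second control and 3.03 with shSETD2 #2. Here the writer knockdowns lay below both controls and SETD2 #1 and #2 each lay above its own.

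ATF3, a stress-induced transcription factor of the same bZIP family, had 3 regions on the plus strand of chromosome 1. Region 1, from 212782029 to 212786834, held the highest fold of the gene in each list: 18.9 in the control, 21.3 with shMETTL3, 10.4 with shMETTL14, 24.5 with shWTAP, 16.5 with shSETD2 #1, 3.82 in the second control and 18.1 with shSETD2 #2. The second control stood apart at the low end, and the ratio of SETD2 #2 to it was 4.74, the only matched ratio of these genes above 2.14 in the 6 comparisons. Support for this peak was modest, with a log10 p of -18.9 in the control and -6.36 in the second control. Region 3, from 212792623 to 212793042, had 2.24-fold enrichment in the control, 1.74 with shMETTL3, 1.47 with shWTAP, 3.60 with shSETD2 #1, 3.06 in the second control and 4.30 with shSETD2 #2. It had no peak in the METTL14 list, and METTL3 and WTAP lay below both controls with a log10 p of -2.83 and -2.72.

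Region 2 of ATF3, from 212787402 to 212791636, was a chain of small peaks rather than 1 site. The control peak of 3 blocks (4.29-fold) overlapped a WTAP peak of 120 bases (2.24-fold) and shared 1 base with a SETD2 #2 peak (1.53-fold). A second control peak (1.92-fold) overlapped only the SETD2 #2 peak, and the METTL3, METTL14 and SETD2 #1 lists had none.

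DDIT3, also known as CHOP, a transcription factor that promotes cell death under lasting stress, had 3 regions on the minus strand of chromosome 12. Region 3, the 3'-most, from 57910371 to 57910989, had fold enrichments of 24.5 in the control, 13.1 with shMETTL3, 7.55 with shMETTL14, 29.4 with shWTAP, 9.06 with shSETD2 #1, 7.72 in the second control and 6.95 with shSETD2 #2. The control and WTAP were the highest, and their peaks were also the narrowest, with 413 and 501 bases against 589 to 619 in the other lists. The part of width in the fold was not tested. METTL14 and SETD2 #2 lay below both controls, and the other knockdowns did not. In the SETD2 #2 list, a peak of a gene on the plus strand (ENSG00000166986, 1.39-fold) overlapped the 3' end of this region.

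DDIT3 region 1, from 57911459 to 57914300, had 4.02-fold enrichment in the control, 2.45 with shMETTL3, 4.82 with shMETTL14, 2.64 with shWTAP, 2.45 with shSETD2 #1, 2.64 in the second control and 4.58 with shSETD2 #2. METTL14 was the highest of the 7 here, unlike in region 3. Region 2, from 57911165 to 57911342, had 1.57-fold enrichment in the control, 2.61 with shMETTL3, 2.33 with shWTAP and 1.58 with shSETD2 #2, and no peak in the METTL14, SETD2 #1 and second control lists. In each of the 4 lists with a region 2 peak, a peak of the same plus-strand gene overlapped it, with 2.1-fold enrichment in the control, 3.45 with shMETTL3, 3.12 with shWTAP and 1.60 with shSETD2 #2. The libraries were made with a stranded kit, but whether strand was used in counting is not given, so reads of the 2 genes may not be told apart in either overlap.

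TRIB3, a pseudokinase induced by ATF4 and DDIT3 that damps their activity, had 3 regions on the plus strand of chromosome 20 and the highest fold enrichment of the group. Region 1, from 361325 to 363109, had 61.3-fold enrichment in the control, 9.48 with shMETTL3, 18 with shWTAP and 15.5 in the second control. In the other lists it was split into 2 peaks, with 5.94 and 3.25-fold with shMETTL14, 7.89 and 3.58-fold with shSETD2 #1, and 6.61 and 1.90-fold with shSETD2 #2. The control exceeded all other lists, the second control included, whose ratio to it was 0.253. METTL3, METTL14 and both SETD2 lists also lay below the second control, and WTAP did not.

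TRIB3 region 2, from 366293 to 371943, was alike in the controls, with 5.59-fold enrichment in the control and 5.17 in the second control, and a log10 p of -263 and -78.0. It was at 1.32-fold with a log10 p of -6.62 in METTL3 and 1.72-fold with a log10 p of -3.55 in SETD2 #2, and had no peak in the METTL14, WTAP and SETD2 #1 lists. By p-value it was the best supported of the control peaks of these genes that were absent from any list. Region 3, from 372152 to 377785, had 34.1-fold enrichment in the control, 14.3 with shMETTL3, 9.39 with shMETTL14, 11.6 with shWTAP, 12.3 with shSETD2 #1, 7.21 in the second control and 5.66 with shSETD2 #2. All 4 knockdowns of the first set lay between the 2 controls there.

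PPP1R15A, also known as GADD34, the stress-induced subunit that directs protein phosphatase 1 to eIF2 and so ends the response, had 2 regions on the plus strand of chromosome 19, both in all 7 lists. Region 1, from 49376490 to 49378214, was the widest peak of the group, with 1576 to 1725 bases. Its fold enrichment was 9.53 in the control, 6.07 with shMETTL3, 6.44 with shMETTL14, 10.5 with shWTAP, 5.39 with shSETD2 #1, 8.25 in the second control and 6.70 with shSETD2 #2. METTL3, METTL14 and both SETD2 lists lay below both controls, and WTAP above them.

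Region 2 of PPP1R15A, from 49378809 to 49379284, had 30.8-fold enrichment in the control, 14.8 with shMETTL3, 8.50 with shMETTL14, 24.9 with shWTAP, 2.67 with shSETD2 #1, 2.30 in the second control and 2.01 with shSETD2 #2. The values fell into a high range and a low one, and SETD2 #1 stood with the second set rather than with its own control. The log10 p was -452 in the control, -20.7 with shSETD2 #1, -9.80 in the second control and -11.6 with shSETD2 #2. Within its own set, SETD2 #1 stood at a ratio of 0.0867 to its control, while SETD2 #2 stood at 0.874 to the second control. The 2 SETD2 lists thus had similar folds at this peak and differed in the ratio to their own control. The controls also differed, with a ratio of the second control to the control of 0.0747. The cause of these differences was not tested.

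ASNS, the enzyme that makes asparagine and a classic target of ATF4, had a single region, on the minus strand of chromosome 7 from 97501071 to 97501675. Its fold enrichment was 5.54 in the control, 2.42 with shMETTL3, 1.90 with shWTAP, 3.21 with shSETD2 #1 and 3.99 in the second control, and METTL14 and SETD2 #2 had no peak. Every knockdown with a peak lay below both controls. Support was moderate, with a log10 p of -23.3 in the control, -16.0 in the second control, -11.8 with shSETD2 #1, -5.28 with shMETTL3 and -3.53 with shWTAP.

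**Figure D4:**
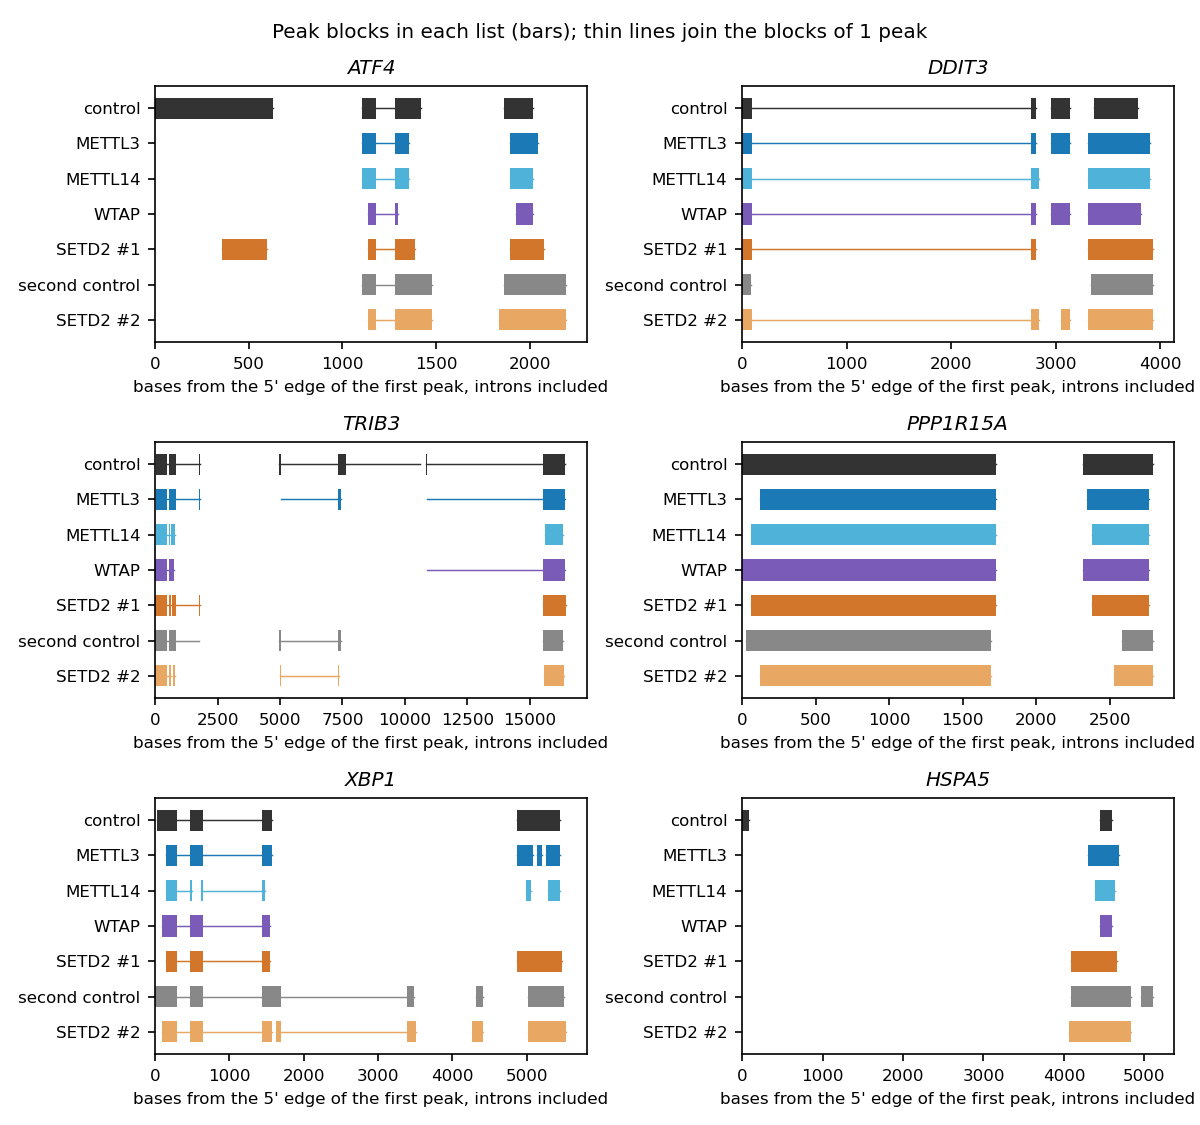
Peak blocks of 6 genes in each of the 7 lists (rows), drawn from 5' to 3' with bases from the 5' edge of the first peak on the x axis, introns included. Bars are blocks and thin lines join the blocks of a peak. ATF4 region 1 appears in the control and SETD2 #1 only, TRIB3 region 2 is shorter or missing in the knockdowns, and HSPA5 region 2 is narrowest in the control and WTAP at 150 bases.

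XBP1, whose mRNA is spliced outside the nucleus by the sensor IRE1 to give an active transcription factor, had 3 regions on the minus strand of chromosome 22. Region 1, from 29193076 to 29196585, had 8.32-fold enrichment in the control, 4.43 with shMETTL3, 4.94 with shWTAP, 2.72 with shSETD2 #1 and 7.40 in the second control. It was split with shMETTL14, with 2.84 and 1.26-fold, and with shSETD2 #2, with 2.55 and 1.36-fold. The controls were the 2 highest and all 5 knockdowns lay below both.

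XBP1 region 3, from 29191052 to 29191712, had 2.01-fold enrichment in the control, 2.08 with shSETD2 #1, 2.08 in the second control and 2.22 with shSETD2 #2. In METTL3 it was broken into 3 peaks of 1.66, 1.14 and 1.59-fold, in METTL14 into 2 of 1.42 and 1.22-fold, and the WTAP list had none. Both SETD2 lists lay at or above both controls, and the writer knockdowns lay below both or had no peak. The control peak had a log10 p of -143, and 11.8% of its list had a lower one. Region 2, from 29192176 to 29192326, was weak and found only in the second set, with 1.29-fold enrichment in the second control and 1.58 with shSETD2 #2.

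ATF6, the membrane-bound sensor that is cut to release a transcription factor, had 2 regions on the plus strand of chromosome 1. Region 2, from 161928341 to 161928701, had 5.40-fold enrichment in the control, 4.59 with shMETTL3, 2.95 with shMETTL14, 3.72 with shWTAP, 5.78 with shSETD2 #1, 6.18 in the second control and 5.63 with shSETD2 #2. The writer knockdowns lay below both controls, and the SETD2 lists lay between the controls. Region 1, from 161736084 to 161748095, had 1.65-fold enrichment in the control, 1.94 with shSETD2 #1, 3.16 in the second control and 2.71 with shSETD2 #2, and no peak in METTL3, METTL14 or WTAP. The control peak there was among the weakest of its list, with a log10 p of -2.89 and 91.2% of control peaks better.

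HSPA5, also known as BiP, the main chaperone of the endoplasmic reticulum, had 3 regions on the minus strand of chromosome 9, of which 1 was in more than a single list. Region 2, from 127998564 to 127999339, had 2.04-fold enrichment in the control, 2.90 with shMETTL3, 2.30 with shMETTL14, 1.63 with shWTAP, 2.79 with shSETD2 #1, 4.36 in the second control and 3.65 with shSETD2 #2. METTL3, METTL14 and SETD2 #1 lay above their control and below the second control, and WTAP lay below both. The covered length was 150 bases in the control and WTAP, 388 with shMETTL3, 240 with shMETTL14, 567 with shSETD2 #1, 746 in the second control and 776 with shSETD2 #2. Region 1 was a control peak of 90 bases with 1.26-fold enrichment, and region 3 was a second control peak of 150 bases, enriched 4.01-fold at a log10 p of -4.41.

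Within genes, the position of the higher fold varied. Among the 8 genes with several control peaks, the 5'-most peak had the higher fold enrichment in 4, namely ATF4, ATF3, TRIB3 and XBP1, and the 3'-most in DDIT3, PPP1R15A, ATF6 and HSPA5. Over all genes with several control peaks the 5'-most was higher in 65.0%. In the second control the number was 5 of 8, against 69.5%. By p-value the 3'-most peak was the better supported in 7 of the 8 genes in the control, PPP1R15A being the exception, and in 59.4% of all such genes. In the second control this held for 6 of 8, with PPP1R15A and HSPA5 the exceptions, against 55.25%.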

How the data were processed

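Per the submitters' processing notes, reads were processed with FastQC 0.11.5 and TopHat2 2.1.1 on hg19. The authors ran exomePeak per condition over replicates 1 to 3 jointly, per the labels; no source used here names its version or annotation. The deposited tables list, for every peak, the authors' p-value of IP against input, 2 unbounded scores (log10 p and log10 of the false discovery rate, FDR) and the fold enrichment, which is the linear IP to input ratio. The largest FDR was 0.05. A shorter deposited list held exactly those peaks whose p-value was 1e-05 or less and whose enrichment reached 2-fold. Fold enrichments are the authors' values; set side by side between lists, they describe those lists only.

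Duplicate entries (identical blocks and strand; 11 to 21 a list) were merged. A peak was absent when no peak of the other list shared at least 1 base of its blocks on the same strand (bedtools 2.31.1, Python 3.11.15, numpy 2.4.6, pandas 2.3.3, matplotlib 3.10.9). The overlap and matching steps were checked on the control list against a copy with peaks removed at random and fold enrichment lowered. Kept peaks had the same coordinates in both, so shifted or split peaks were not tested. The members and lists were chosen with earlier results of these data known, all 9 genes were named, and their symbols were given with their identifiers. The comparison with both controls, the comparison of gene ends and the count of log10 p below -100 were added after the data were examined. Other stress response genes and markers of liver cells, planned by symbol, were not analysed here, because 0 genes of the reference table carried an Ensembl identifier, so the HepG2 label was not checked. No sequence is shown, since no hg19 genome was used here. Read depth per library is unknown, so the precision it gives is unknown too.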

Additional observations from a re-analysis of the deposited data

How the results depend on the processing

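No paired analysis was possible because the authors joined replicates 1 to 3 in each list, which also kept any replicate from being dropped. Of 104 values recomputed under alternatives, 88 stayed within 1.5 times. All counts stayed so with whole spans, an FDR of at most 1e-05, peaks of the same gene identifier, and matching by most shared bases. The absent shares of METTL3 and WTAP nevertheless went from below to above those of all peaks at an FDR of at most 1e-05 (25 against 20.4% and 35.0 against 27.0%) and in the shorter lists (35.3 against 20.4% and 41.2 against 27.1%). When a shared 50% of both peaks was required, absent control peaks numbered 7 with shMETTL3 (33.3%, against 35.1% of all). They numbered 9 with shWTAP (42.9%, against 43.8%) and 8 for the second control (38.1%, against 45.2%). Absent second control peaks numbered 4 with shSETD2 #2 (20.0%, against 31.9%) and 7 for the control (35.0%, against 40.8%). Under this setting peaks absent from their control numbered 5 of 19 with shMETTL3 (27.9% of all) and 5 of 16 with shMETTL14 (35.9%). They numbered 4 of 16 with shWTAP (35.6%), 3 of 18 with shSETD2 #1 (28.1%) and 5 of 21 with shSETD2 #2 (27.2%). Each share lay below that of all peaks. In the shorter lists, 1 peak each of METTL3, WTAP and SETD2 #1 was absent from the control, where the full lists gave 0. The shares were 8.33, 9.09 and 6.67%, against 10.5, 13.5 and 6.82% of all. The shorter METTL3 and METTL14 lists held 12 of the 19 and 10 of the 16 peaks of the genes. Of all peaks they held 71.1 and 69.3%. Divided by the median ratio of all matched peaks, fold enrichment in the second control was below the control at 6 of 17 peaks instead of 11. Alternatives of matching and scaling were chosen after the data were examined. For these changes the cause was not tested. Absence from a list depends on depth, which is unknown, and on transcript level as well as on methylation.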
